A study of Mus musculus with 6 samples.

Results

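Short circular RNAs (circRNAs) without a circBase name were examined in N2a cells, a mouse neuroblastoma line. A circRNA belonged to this set when the deposited circRNA tables named it by its coordinates and these spanned under 10000 bases on the genome. The rule found 670 of the 3168 circRNAs in the tables. The others were 744 named by coordinates that span 10000 bases or more, called long here, and 1754 named by a circBase identifier. All 670 short circRNAs had both ends on exon ends of one annotated transcript, and they came from 602 host genes.

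All cells had been differentiated towards neurons in medium with 2% serum and 10 µM retinoic acid for 96 h. Then 3 libraries were made from cells treated with RSL3 at 5 µM for 24 h, and 3 from control cells that received only its solvent, DMSO. RSL3 blocks the lipid peroxide reductase GPX4 and induces ferroptosis, an iron-dependent cell death. Separate cultures are not stated for replicate libraries, so p-values measure only the spread between these samples, which may be technical.

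A circRNA forms when the splicing machinery joins the end of an exon back to the start of the same or an earlier exon. The product has no free end and no poly(A) tail, which makes it resistant to exonucleases, and it is detected by reads that cross the back-splice junction. Circularised exons often lie next to long introns, some RNA-binding proteins promote or hinder the reaction, and circRNAs are abundant in neurons. Their known roles include binding of microRNAs and proteins, but most have no known function.

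Junctions of some of the most abundant short circRNAs, and of the shortest one, are shown because only reads across them count a circle. In the first 4 lines the lower-case bases are the last 20 of the final exon and the capitals are the first 20 of the opening exon. The sequences were read 5′ to 3′ from GENCODE M21 transcripts on GRCm38, and all lie in coding sequence.
Asph: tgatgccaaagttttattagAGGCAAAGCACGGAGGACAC
Gm47283: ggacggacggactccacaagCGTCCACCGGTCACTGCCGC
Ppfia2: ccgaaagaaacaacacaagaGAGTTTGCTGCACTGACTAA
Eif4b: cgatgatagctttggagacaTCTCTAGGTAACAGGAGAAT
In 2 further circles a single small exon closes on itself, and the whole circle is printed, opened opposite the junction. Here too the change from lower case to capitals marks the junction.
Xpr1: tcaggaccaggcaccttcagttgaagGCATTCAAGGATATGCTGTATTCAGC
Numa1: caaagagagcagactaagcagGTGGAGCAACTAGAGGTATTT

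The Asph circle, at chr4:9635901-9639347 on the minus strand, joins exons 2 and 3 of a gene for an endoplasmic reticulum hydroxylase and calcium-binding protein. The Gm47283 circle is exon 2 of that gene at chrY:90793296-90793417 on the plus strand. Ppfia2 encodes a liprin that organises synapses, and its circle is exon 4 at chr10:106743487-106743588 on the plus strand. Eif4b encodes a translation initiation factor, and its circle holds exons 5 and 6 at chr15:102086003-102086639 on the plus strand. The circle of the phosphate exporter Xpr1 is exon 2, of 52 bases, at chr1:155384611-155384662 on the minus strand. The circle of the spindle protein Numa1 is an exon of 42 bases at chr7:102002295-102002336 on the plus strand, and is the shortest of all 670. It had 0 reads with DMSO and 0, 3 and 2 with RSL3.

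Short circRNAs were small, mostly coding circles. Their median spliced length, the summed length of their exons, was 416 bases, against 909 in the long ones, and their median span was 3889 bases. They held a median of 3 exons, against 7 in the long ones. A single exon made up 63 of them, 169 had 2 exons, 172 had 3, 100 had 4 and 166 had 5 or more. The single-exon circles had a median of 174 bases, where internal exons of the host transcripts of short circRNAs had a median of 124. No long circRNA had a single exon. Span chose the members, so these sizes describe them and are not tested.

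**Figure D1:**
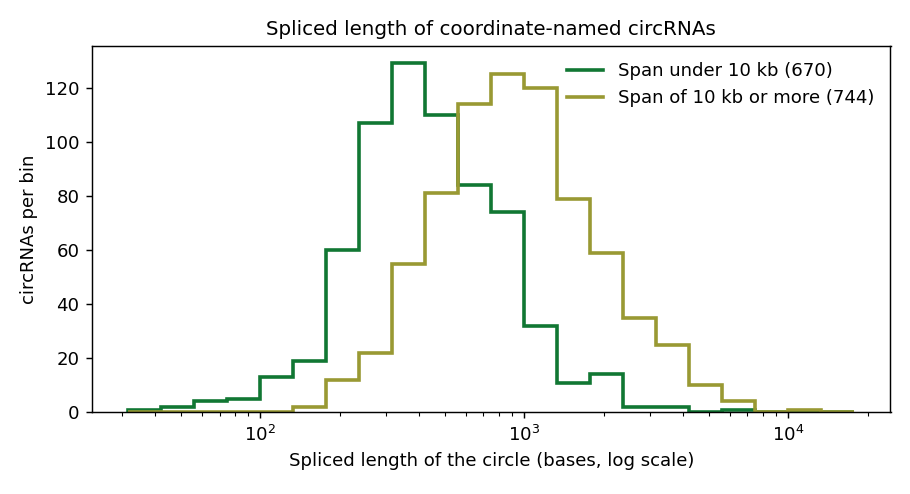
Spliced length of the circle in bases (log scale) against the number of circRNAs per bin, for coordinate-named circRNAs spanning under 10 kb and those of 10 kb or more. The short ones have a median of 416 bases and the long ones of 909, with wide overlap.

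The span limit fell among circRNAs of few reads. Just inside it lay a 5-exon circle of the uridine kinase gene Uck2, with a span of 9917 bases and 8 reads over the 6 libraries. Also inside was a 3-exon circle of the metalloprotease gene Adamts6, with a span of 9929 bases and 7 reads. Just outside were circles of the RNA-binding gene Zfr, at 10001 bases and 3 reads, and of the myristoyltransferase gene Nmt2, at 10053 bases and 8 reads.

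Many short circles opened near the 5′ end of their host. Of the 670, 220 (32.8%) began at exon 2, while 1 began at exon 1 and 1 ended in the last exon. Among the long ones 42.9% began at exon 2. The intron before a short circRNA had a median of 3882 bases and the one after it 2852. All introns of the host transcripts of short and long circRNAs together had a median of 1743. The single-exon circles had flanking introns of 7316 and 10314 bases at the median. The long circRNAs had medians of 10625 and 5895 bases. Of the short circles, 560 (83.6%) were wholly coding, against 78.6% of the long ones. A length that is a multiple of 3 was found for 234 of these 560 (41.8%), against 40.3% of the wholly coding long ones. A start codon lay in 85 short circles (12.7%), against 19.6% of the long ones. Protein-coding genes were the hosts of 664 short circles and of 742 of the 744 long ones.

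Most short circRNAs rested on few reads. Each library's values were whole multiples of its smallest value, which was taken as 1 read. On that scale the back-splice reads of all circRNAs came to 9409, 7194 and 7179 with DMSO and to 5226, 7364 and 6782 with RSL3. The short circRNAs took 834, 671 and 713 of them with DMSO and 624, 888 and 833 with RSL3, or 4563 in all. A short circRNA had between 3 and 192 reads over the 6 libraries, with a median of 5. At least 10 reads were found for 73 of them and at least 20 for 22. The median of the long circRNAs was 5 reads too, and that of circBase-named circRNAs was 9 reads.

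Seen means at least 1 read. In a single library 317 of the 670 were seen (47.3%), and in all 6 libraries 20 (2.99%). Of the 744 long circRNAs, 318 (42.7%) were seen in a single library and 22 (2.96%) in all 6. Of the 1754 circBase-named circRNAs, 175 (9.98%) were seen in a single library and 316 in all 6. The mean value per short circRNA was 160 ± 22.7 CPM (SD over 6 libraries) and per long circRNA 176 ± 14.2 CPM. It was lower for the short ones in 6 of 6 libraries (difference 15.5 CPM, exact sign-flip test, two-sided p = 0.03125, the smallest that 6 libraries allow). With medians in place of means the difference was 0, but this was fixed in advance. No library saw more than 255 of the 670 short or 293 of the 744 long circRNAs, so both medians were 0. Most of the gap in means lay in the DMSO libraries, at 141 ± 6.82 CPM per short and 169 ± 15.4 per long circRNA (SD, n = 3). With RSL3 the values were 180 ± 9.78 and 182 ± 11.8 CPM.

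Short circRNAs seen in at least 3 libraries differed in their surroundings from those seen in 1. The former began at exon 2 in 43.8% of cases and had a median of 7327 bases of intron before them. The latter began there in 25.2% and had 2929 bases. Their spliced lengths were alike, with medians of 409 and 421 bases. These are descriptions over circRNAs, which are not independent samples.

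The 10 short circRNAs of highest mean value held 651 reads, 14.3% of the set's total. All 10 were seen in every library, 4 were single exons and 6 began at exon 2. The Asph circle led with 64, 20 and 20 reads with DMSO and 18, 19 and 51 with RSL3, 4.21% of the set's reads. One library of each group stood well above its other 2, and the groups overlapped. A circle of the ubiquitin-conjugating enzyme gene Ube2d2a, 5 exons on chromosome 18, had 21, 9 and 13 reads against 9, 15 and 20.

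The Gm47283 circle had 9, 9 and 12 reads with DMSO and 6, 21 and 10 with RSL3. This gene lies near the end of the Y chromosome, in the region shared with the X chromosome, so its reads may come from near-identical copies and its values are uncertain. The Ppfia2 circle had 11, 5 and 3 reads against 1, 7 and 10, and the Eif4b circle 9, 1 and 12 against 5, 1 and 4. The circle of Setd3, the actin histidine methyltransferase, had 4, 6 and 4 reads against 2, 10 and 4. That of Ankrd12, an ankyrin-repeat co-regulator, had 12, 2 and 8 against 1, 8 and 1. The Xpr1 circle had 1, 4 and 1 reads with DMSO and 11, 1 and 8 with RSL3. In each of these the groups overlapped.

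**Figure D2:**
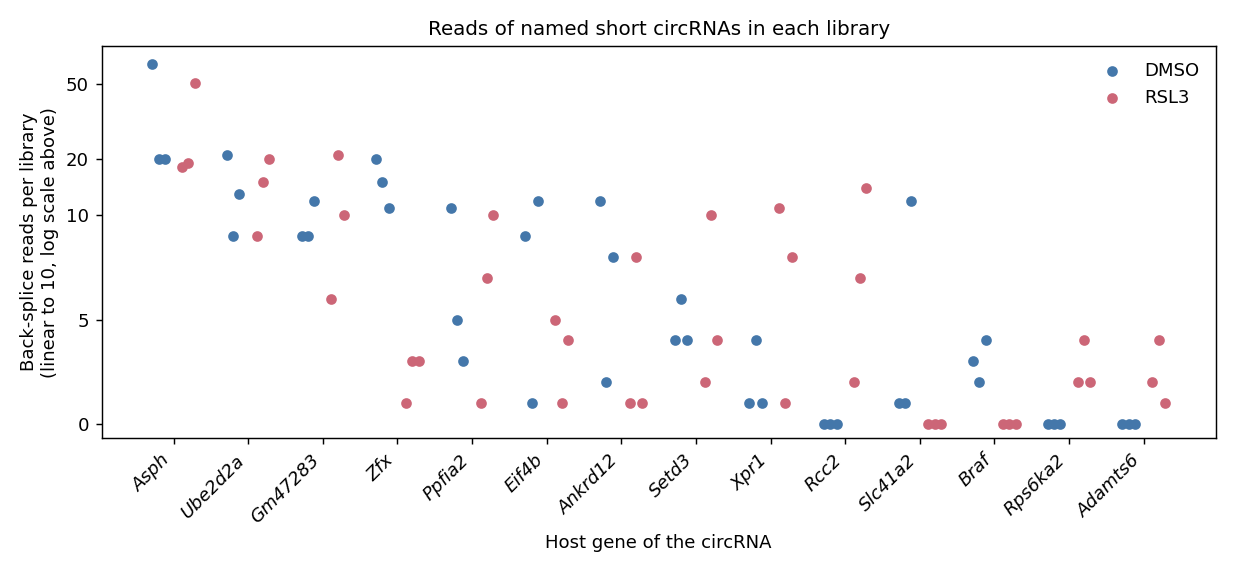
Back-splice reads per library (linear to 10, log scale above) of 9 of the 10 short circRNAs of highest mean value and of the 6 with the smallest p values, ordered by total reads. Each point is 1 library, DMSO in blue and RSL3 in red; the groups separate for Zfx, Rcc2, Slc41a2, Braf, Rps6ka2 and Adamts6, which were selected by p, and overlap in the others.

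No single short circRNA passed the test of RSL3 against DMSO. Of the 670, 176 were above 0 in at least 3 libraries and could be tested, and 494 were not. In limma with Benjamini-Hochberg adjustment over all 1662 circRNAs tested, 0 of the 176 were called in either direction, and percent called over the table was 0.0. Their smallest adjusted p was 0.556. At an unadjusted p under 0.05, limma had 17, edgeR on the recovered reads 18 and DESeq2 7, and neither count tool called a short circRNA. Of the 17, 6 were higher with RSL3 (3.41%, against 2.05% of all tested circRNAs) and 11 lower (6.25%, against 5.72%). Groups did not overlap for 12 above (6.82%, background 4.33%) and 12 below (6.82%, background 7.46%). Of these, 5 above and 10 below had reads in all 3 libraries of a group and none in the other. They passed the filter only through the group where they were high, so the filter fixed their separation. Rcc2, Rps6ka2, Adamts6, Braf and Slc41a2, described below, are among them and among the 17. So are Kctd9, Ints8, Uso1 and Disc1. The counts and percentages of the 17 therefore rest in part on separations that the filter fixed, and they are not read as support for a change. The median log2 fold change of log2(CPM + 140) was 0.08 for the short circRNAs and -0.11 for all tested. Among those with 7 or more reads, 121 short ones, it was -0.03 and for all tested -0.16, so the sign for the short circRNAs turned.

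The smallest p among those lower with RSL3 belonged to a circle of Zfx, an X-linked zinc finger transcription factor. It joins exons 3 and 4, 660 bases in all, at chrX:94098283-94102380 on the minus strand. It had 20, 15 and 11 reads with DMSO and 1, 3 and 3 with RSL3. Every DMSO library lay above every RSL3 library. The log2 fold change was -2.11 ± 0.67 (SE), with an unadjusted p of 0.00157 and an adjusted p of 0.556 in limma. Leaving out each library in turn gave between -2.27 and -1.83. Zfx mRNA was at 2.83 ± 0.247 FPKM with DMSO and 2.81 ± 0.924 with RSL3 (SD, n = 3; limma adjusted p = 0.928).

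The circle with the smallest p among those higher with RSL3 came from Rcc2, which encodes a regulator of chromosome condensation and of Rac signalling. It holds exons 5 to 11, 922 bases, at chr4:140707951-140717200 on the plus strand. It had 0 reads in all 3 DMSO libraries and 2, 7 and 14 with RSL3. Against the floor of 3 reads over the DMSO group it was at least 9.41-fold higher. That limit covers counting error in the DMSO group only and takes the 23 RSL3 reads as exact. RSL3 replicate 3 held 14 of the 23 reads, and without it the limit was 5.67; without DMSO replicate 1 it was 5.69. Its adjusted p was 0.556 in limma, 0.0645 in edgeR and 0.128 in DESeq2. A second Rcc2 circle, of 3 exons and 370 bases, shares its first splice site and had 0 reads with DMSO and 4 with RSL3, all in 1 library. Rcc2 mRNA moved the other way, from 245 ± 4.32 to 197 ± 16.1 FPKM (SD, n = 3; log2 fold change -0.32 ± 0.07 SE, limma adjusted p = 0.0456). That call was lost under quantile normalization (log2 fold change -0.18, limma adjusted p = 0.253) and without any 1 library other than RSL3 replicate 1 (limma adjusted p from 0.0629 to 0.173).

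The other named circRNAs rested on 14 reads or fewer. Their limits, too, take the reads of the higher group as exact and leave out its counting error. A circle of Rps6ka2, a ribosomal S6 kinase, had 0 reads with DMSO and 2, 4 and 2 with RSL3, at least 3.27-fold higher (1.98 without DMSO replicate 1). The Adamts6 circle had 0 reads with DMSO and 2, 4 and 1 with RSL3, at least 2.86-fold higher. Without RSL3 replicate 2 only 3 reads remain and no limit can be given, and without DMSO replicate 1 it was 1.73. A circle of the kinase gene Braf had 3, 2 and 4 reads with DMSO and 0 with RSL3, at least 2.44-fold lower (1.51 without RSL3 replicate 2 and 1.59 without RSL3 replicate 3). A circle of the magnesium transporter gene Slc41a2 had 1, 1 and 12 reads with DMSO and 0 with RSL3, at least 3.8-fold lower. This limit rests on DMSO replicate 3, without which 2 reads remain and no limit can be given; without RSL3 replicate 1, 2 or 3 it was 2.78, 2.36 and 2.47. Each had an adjusted p of 0.556 in limma, and none of the mRNAs of these 4 hosts passed.

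As a set, the short circRNAs took a larger share of the reads in the RSL3 libraries. Their share was 8.86%, 9.33% and 9.93% with DMSO and 11.9%, 12.1% and 12.3% with RSL3. Wilson 95% intervals, which cover counting error only, ran from 8.31% to 10.7% over the DMSO libraries and from 11.1% to 13.1% over the RSL3 libraries. The means were 9.37 ± 0.535% and 12.1 ± 0.174% (SD, n = 3), and the groups did not overlap. The exact permutation test gave two-sided p = 0.1, the smallest that 3 against 3 allow, so it could not pass 0.05. The long circRNAs had 12.5 ± 1.35% and 13.6 ± 0.35%, with overlap (exact p = 0.3), and the circBase-named ones 78.1 ± 1.86% and 74.3 ± 0.524% (exact p = 0.1).

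The tables list circRNAs of 3 reads in total in RSL3 libraries only, and the difference in share lay among short circRNAs under 7 reads. Each of the 3168 circRNAs had at least 4 reads with DMSO or at least 3 with RSL3. All 87 short circRNAs of 3 reads in total were seen in RSL3 libraries only, and 0 of them had a DMSO read. The same held for all 289 such circRNAs of the whole table. A single read was worth 110, 137 and 140 CPM with DMSO and 181, 140 and 149 CPM with RSL3. The lowest value of the larger group mean over the table was 139.9 CPM, and among circRNAs seen with DMSO only it was 155.1 CPM. Those seen in DMSO replicate 1 only had at least 5 reads. The rule behind the listing is not known. Of the 231 short circRNAs of 4 reads, 91 were seen with DMSO only and 126 with RSL3 only. Over the whole table these were 271 and 288 of 624. Among the long ones the order was reversed, at 100 and 86 of 203.

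**Figure D3:**
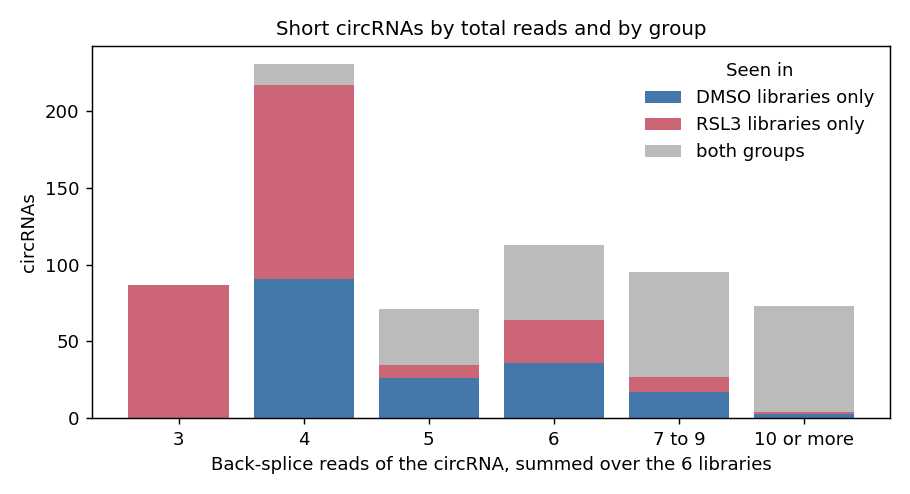
Number of short circRNAs by their total back-splice reads over the 6 libraries, stacked by whether they were seen in DMSO libraries only, RSL3 libraries only or both groups. All 87 circRNAs of 3 reads were seen with RSL3 only, whereas 69 of the 73 with 10 or more reads were seen in both groups.

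Among the 168 short circRNAs with 7 or more reads, the share was 6.04%, 4.70% and 5.18% with DMSO and 4.71%, 5.58% and 6.05% with RSL3. The means were 5.31 ± 0.678% and 5.44 ± 0.679% (SD, n = 3; exact permutation p = 0.7), and the groups overlapped. Below 7 reads the share was 2.83%, 4.63% and 4.75% with DMSO and 7.23%, 6.48% and 6.24% with RSL3 (exact permutation p = 0.1). The limit of 7 reads was chosen after the values were seen. Without the 317 seen in 1 library, the share was 7.11 ± 0.442% and 7.73 ± 0.315% (exact permutation p = 0.2), with overlap.

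**Figure D4:**
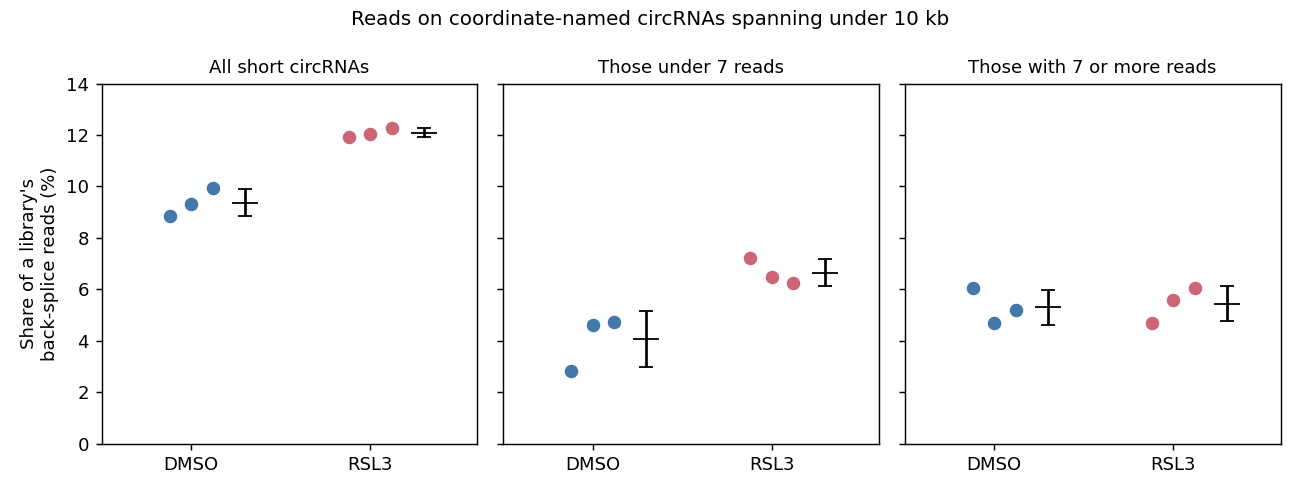
Share of each library's back-splice reads (%) on all 670 short circRNAs, on those under 7 reads and on those with 7 or more reads. Points are libraries and bars are means with SD of 3; the groups separate in the first 2 panels and overlap in the third, where the means are 5.31% and 5.44%.

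The number of short circRNAs seen was 219, 203 and 214 with DMSO and 203, 255 and 243 with RSL3, with overlap (exact permutation p = 0.4). At the depth of the shallowest library, 5226 reads, it was 177, 187 and 197 against 203, 236 and 227 (exact permutation p = 0.1). Among those with 7 or more reads it was 111, 94 and 96 against 73, 96 and 97 (exact permutation p = 0.6), and the direction turned. In total 173 were seen with DMSO only, 261 with RSL3 only and 236 in both. The same totals over the long circRNAs or the whole table are not given, so this split is not read as a trait of the short ones. The 261 include all 87 of 3 reads, and the long circRNAs had 135 of 3 reads, also with RSL3 only. At 5 and 6 reads, 26 and 36 short circRNAs were seen with DMSO only and 9 and 28 with RSL3 only. Among the long ones these were 40 and 34 with DMSO only and 18 and 23 with RSL3 only. Of the 168 short ones with 7 or more reads, 20 were seen with DMSO only and 11 with RSL3 only. Over the whole table these were 89 and 35 of 1508. The unequal minimum of 4 and 3 reads cannot remove a circRNA of 7 or more reads. How far it bears on the other counts was not tested.

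Over the libraries together, read numbers of short circRNAs were more often even than odd. This held in 5 of the 6 libraries, at 56.0% to 67.0% even, while DMSO replicate 1 had 47.0%, below the 51.2% of its long circRNAs. Of all 1337 values above 0, 58.2% were even, against 51.3% for long and 48.6% for circBase-named circRNAs. By spliced length the share was 62.3% under 150 bases, 67.2% from 150 to under 300, 56.2% from 300 to under 600, 54.1% from 600 to under 1200 and 52.0% from 1200. Long circRNAs of 150 to under 300 bases had 61.5%. Of the 317 seen in 1 library, 187 had exactly 4 reads, 62 had 3 and 12 had 5. What sets this pattern was not tested. Reads without molecular identifiers are not independent molecules, so the intervals and floors given here cover counting error only.

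**Figure D5:**
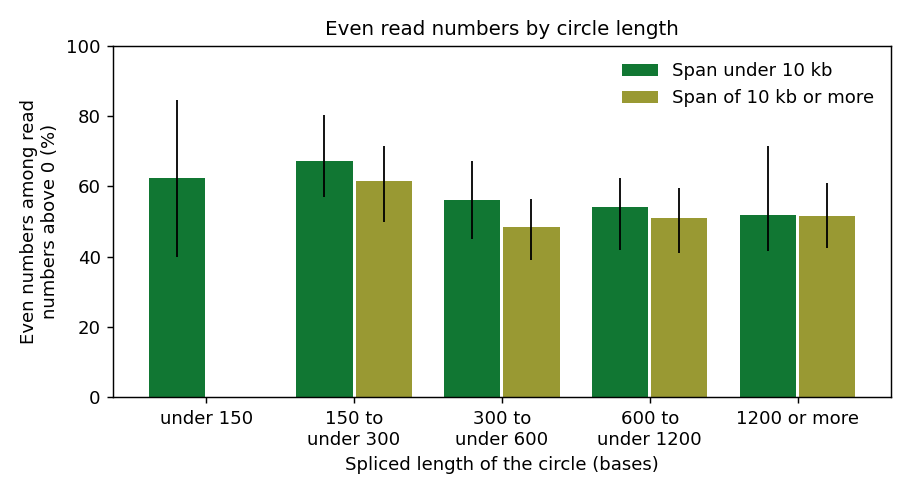
Percent of read numbers above 0 that are even, by spliced length of the circle in bases, for short and long coordinate-named circRNAs. Bars give all libraries together and vertical lines run from the lowest to the highest library; short circles of 150 to under 300 bases reach 67.2%, and no long circRNA was under 150 bases.

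Several hosts gave more than 1 short circRNA, 62 in all, and 25 pairs shared a splice site, 10 a donor and 15 an acceptor. Members of a pair are not independent. Atad2, a chromatin-associated ATPase, was the host of 4, with 4 to 13 reads each, and 3 of them began at exon 7. Hspd1, Top2a, Ckap5 and Gm47283 had 3 each and are named after their values were seen. Hspd1 encodes a mitochondrial chaperonin, and its 3 circles all began at exon 3 with 5 or 6 reads. Top2a encodes a topoisomerase, and its circles of 238 and 759 bases shared a donor, with 12 and 4 reads. Beside the 374-base Ube2d2a circle of 87 reads stood a 310-base one of 6 reads with the same donor. The 512-base Gm47283 circle had 14, 3 and 5 reads with DMSO and 1, 4 and 1 with RSL3, with overlap.

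By function, the hosts came from many groups. Genes of RNA-binding proteins gave 30 short circRNAs from 26 hosts. The Hnrnpu circle, from a nuclear matrix ribonucleoprotein gene, had 4, 2 and 2 reads against 1, 11 and 9. The Larp1 circle, from a regulator of ribosomal protein mRNAs, had 10, 3 and 7 over exons 2 to 8, against 2, 4 and 2. Another Larp1 circle, of exons 9 to 15, had 1, 0 and 0 reads against 5, 0 and 0. Cell cycle and DNA repair genes gave 20 from 16 hosts, and the circle of the DNA methylation factor Uhrf1 had 3, 5 and 4 reads against 0, 0 and 3. Ubiquitin genes gave 21 from 17 hosts, chromatin genes 14 from 12 and neuronal genes 10 from 9. Only 9 of the RNA-binding, 4 of the cell cycle, 6 of the ubiquitin, 2 of the chromatin and 3 of the neuronal ones could be tested, and 0 were called.

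Hosts already known for circRNAs gave 8 short ones from 8 genes. The circle of Nrip1, a nuclear receptor co-repressor, had 0, 1 and 0 reads with DMSO and 2, 4 and 4 with RSL3. That of the long non-coding RNA Pvt1 had 1, 0 and 0 against 4, 3 and 2. In both, the RSL3 libraries had more reads than any DMSO library, with limma adjusted p of 0.618 and 0.656. Genes of ferroptosis and antioxidant defence gave 3 short circRNAs. Malic enzyme Me1 had 2, 0 and 2 reads against 0, 0 and 3, the exporter Abcc1 0, 0 and 2 against 0, 3 and 0, and thioredoxin reductase Txnrd1 0, 0 and 5 against 0. Txnrd1 mRNA was higher with RSL3 (log2 fold change 0.32 ± 0.07 SE, limma adjusted p = 0.0452), and the other 2 mRNAs did not pass. The Txnrd1 call too was lost without any 1 library other than RSL3 replicate 1 (limma adjusted p from 0.0717 to 0.191).

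Few host mRNAs passed the test. Of the 602 hosts, 587 were in the mRNA table and 580 were tested, with 6 higher (1.03%, against 2.46% of all mRNAs) and 23 lower (3.97%, against 3.92%) in limma. Their median log2 fold change was -0.09 and that of all mRNAs -0.03. Quantile normalization changed these counts to 16 higher and 17 lower. Without RSL3 replicate 1 they were 22 and 48, without RSL3 replicate 3 they were 2 and 4, and without DMSO replicate 1, 2 or 3 they were 1 and 3, 1 and 1, and 0 and 2. Short hosts had a median of 11.3 FPKM, long hosts 8.04, and all mRNAs listed 6.42.

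The genes known to act on circRNA formation, export or decay were read from the mRNA table. Of 40 listed, 37 were tested, with 0 higher (2.46% of all mRNAs) and 3 lower (3.92% of all mRNAs) in limma. Eif4a3, an exon junction complex helicase, fell from 85.1 ± 1.73 to 61.8 ± 4.47 FPKM (log2 fold change -0.46 ± 0.07 SE, limma adjusted p = 0.0126). The splicing factor gene Sf3a1 fell from 53.7 ± 0.444 to 41.7 ± 1.3 FPKM (-0.36 ± 0.05 SE on the log2 scale, limma adjusted p = 0.014). Hnrnpl, a splicing regulator, fell from 54 ± 1.87 to 45.5 ± 0.731 FPKM (-0.24 ± 0.06 SE on the log2 scale, limma adjusted p = 0.0495). In none of the 3 did the groups overlap. The calls of Eif4a3 (limma adjusted p from 0.055 to 0.0755) and Sf3a1 (from 0.0653 to 0.0864) were lost without RSL3 replicate 3 or any 1 DMSO library. That of Hnrnpl was lost in the same way (from 0.129 to 0.224), without RSL3 replicate 2 (0.0669) and under quantile normalization (limma adjusted p = 0.118). The editing enzyme Adar, the circularisation-promoting Qk and the helicase Dhx9 had log2 fold changes of -0.01, -0.12 and 0.05, and none passed.

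Seed matches of 8 microRNAs common in neurons were sought in the circles, on the sense strand and over the junction too. A match is the complement of bases 2 to 8, and it is only a description of the letters. Mature sequences of 7 were found in RefSeq on GRCm38.p6, without mmu-miR-124-3p, and their seeds all differ. Printed with the seed in capitals are mmu-miR-7a-5p, known for its circular sponge in brain, the one with most matches and the one whose density differed most from that in long circRNAs.
mmu-miR-7a-5p: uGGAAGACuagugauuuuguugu
mmu-miR-138-5p: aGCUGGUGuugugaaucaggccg
mmu-miR-125b-5p: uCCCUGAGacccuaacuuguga
The match of mmu-miR-7a-5p, GTCTTCC, occurred 31 times in 26 short circRNAs (3.88%), at 0.0845 per 1000 bases, against 0.0942 in long ones and 0.0881 in the host transcripts. The match of mmu-miR-138-5p, CACCAGC, occurred 68 times in 53, at 0.185 per 1000 bases, against 0.175 and 0.16. The match of mmu-miR-125b-5p, CTCAGGG, occurred 65 times in 58, at 0.177 per 1000 bases, against 0.107 and 0.112. The highest number in 1 circle was 6, for mmu-miR-138-5p in Fbrs, which had 5 reads. The circle with most matches of mmu-miR-7a-5p, 4 in Prune2, had 7316 bases and 7 reads. Both were picked after the counts were seen.

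Defining markers were checked against the label of the cells. Of 15 neuroblast and neuronal markers 12 were in the mRNA table, summing to between 467 and 470 FPKM with DMSO and between 371 and 432 with RSL3, while Nefl, Nefm and Rbfox3 were not listed. All 6 liver markers were listed, at 45.4 to 61.0 FPKM with DMSO and 10.6 to 19.9 with RSL3. Of the fibroblast, glial, myeloid and endothelial markers 1 each was listed, at no more than 4.39 FPKM. The part of these in the circRNA values was not tested.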

How the data were processed

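The 6 circRNA tables and the 6 mRNA tables were used, and the lncRNA tables were not used here. The deposited circRNA values are headed CPM and were recorded as a signal, because the column sums differ between libraries; the deposited mRNA values are in FPKM. Per the submitters' processing notes, the tools included StringTie 1.3.3, HISAT2 and cutadapt, with the build GRCm38. No circRNA caller, filter or annotation release is named in the labels. Per the labels' protocols, a poly(A) isolation module stood at the step that removes ribosomal RNA, and the kit is stranded.

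Reads were recovered by taking each library's smallest circRNA value as 1 read, which left 100% of the values whole to a tolerance of 0.01. Library totals ranged from 5226 to 9409. Ends were matched to exon ends of GENCODE M21 with the start counted from 0; printed starts count from 1. Read depth behind FPKM is unknown.

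The groups were tested against each other with limma 3.58.1 under R 4.3.3, two-sided, with a variance trend and Benjamini-Hochberg adjustment over all features, threshold 0.05. For circRNA it used log2(CPM + 140), above 0 in at least 3 libraries, and for mRNA log2(FPKM + 1), at least 1 FPKM in at least 3 libraries. Fold changes on these scales understate those of low values. edgeR 4.0.16 (quasi-likelihood) and DESeq2 1.42.0 ran on the recovered reads as alternatives, and the fits were tested on simulated data. Single values per library were compared by exact permutation.

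The members, the gene lists and the microRNAs were chosen with earlier results of these data known. Named by rule were the 3 circRNAs of smallest p in each direction where none passed, the 10 of highest mean, the 3 highest single exons, hosts with 4 or more members, the extremes of span, up to 3 per gene list, the top pairs sharing a splice site, and up to 4 regulators that passed in a direction, with Adar, Qk and Dhx9. Other items that the rule takes are not reported here. Others are said to be chosen after their values were seen.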

Additional observations from a re-analysis of the deposited data

How the results depend on the processing

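The count of 0 short circRNAs called held in all 15 alternatives (other tools, pseudocounts, filters, scaling, the replicate block and leaving out each library). The share kept its direction in all 13. As a share of coordinate-named reads only, the difference was 4.19 percentage points, and in the other alternatives it was 0.139 to 3.00. With the replicate number as a block the exact sign-flip p of the share was 0.25, the smallest 3 pairs allow. The difference in the number seen, 21.7, turned to -12.7 without circRNAs seen in 1 library and -11.7 among those with 7 or more reads. The gap between short and long mean CPM, -15.5, was -5.66 (exact p = 0.13) at a span limit of 5000. It was -18.6 to -11.7 leaving out 1 library (exact p = 0.0625, the smallest 5 libraries allow). For medians it was 0.0, which was fixed because most circRNAs of both sets had no read in a given library. The number of mRNAs called, 676, fell to 253 with the replicate block and ran from 137 to 1276 leaving out 1 library; 5 of those 6 fits gave a count outside 1.5 times the 676. The split of 261 higher and 415 lower became 350 and 329 under quantile normalization. Adar mRNA turned to 0.0343 under quantile normalization, and leaving out 1 library its log2 fold change ran from -0.0855 to 0.110. Qk ran from -0.225 to 0.0492 and Dhx9 from -0.0420 to 0.212. The falls of Eif4a3, Sf3a1 and Hnrnpl missed the threshold in 4, 5 and 9 of 11 alternatives. With the replicate block the limma adjusted p was 0.0709 for Sf3a1, 0.146 for Hnrnpl, 0.105 for Rcc2 and 0.0876 for Txnrd1 mRNA. Deviations of same-numbered libraries correlated at -0.05, 0 and -0.023 for circRNA and -0.145, 0.049 and -0.062 for mRNA. Most circRNA values rest on few reads, so these correlations cannot tell whether same-numbered libraries were handled together. The alternatives that leave out circRNAs by reads or libraries were chosen after seeing the data. Short circRNAs had a median of 5 reads, and 494 of the 670 were seen in too few libraries to be tested.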
